A study of Mus musculus with 64 samples.

Results

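The cardiomyocyte fraction of neonatal CD1 mouse hearts was examined 3 days after a myocardial infarction (MI), made on postnatal day 1 (P1), against the same fraction after a sham operation at that age. The libraries were chosen by their labels alone, 4 after MI and 4 after sham, 8 of the 64 in the series, and every gene of the deposited table was considered. The P1 MI hearts had the left anterior descending coronary artery tied off, and the P1 sham hearts went through the same procedure without the tie. Ventricles were pooled 6 at a time, digested with Liberase and spun on a Percoll gradient, whose bottom layer was kept as the myocyte fraction without any cell sorting. The other groups used here were the cardiomyocyte fractions of males operated on postnatal day 56 (P56), also after MI or sham and with 4 libraries each, whose hearts were perfused with enzyme, so that age, sex and isolation cannot be told apart. Cells sorted from P1 hearts after MI or sham as CD90 positive fibroblasts, CD45 positive leukocytes or CD31 positive endothelial cells, again 4 libraries a group, show where a gene was most abundant. The labels name no transgene or deleted gene. Since they do not state whether libraries of 1 group were made from different pools of hearts, the spread behind each p-value is that between libraries and may be technical.

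A mouse heart injured in its first days of life can replace lost muscle, largely by division of existing cardiomyocytes, and it loses that ability within about its first week. In the days after an infarct, monocytes and macrophages enter the damaged wall, take up dead cells and secrete proteases and growth factors, while epicardium and vessels also respond. A dense fraction of digested heart is mostly cardiomyocytes but can hold macrophages, vessel fragments and fibroblasts that stay attached to them.

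The 8 libraries held 14.97 to 26.58 M reads recovered from the deposited values, which are scaled read counts named CPM by the authors. A floor of 3 reads equals 0.102 to 0.254 CPM. All values of a library summed to 876660 to 1265640 CPM at P1 and to 1447880 to 2627530 CPM in the P56 cardiomyocyte fractions. A CPM value is therefore not a fixed share of its library, which also bears on levels set side by side between ages. Sham library 2 stood apart from the others, with the fewest reads, 16.6% of them from 18S ribosomal RNA against at most 3.78% in the other 7, and the highest score on the second principal component, 46.5 against -26.5 to 13.7. The first principal component, which took 35.1% of the variance, was negative in all 4 MI libraries and positive in all 4 sham libraries. The summed level of 26 cardiomyocyte markers was 72036 to 91654 CPM after MI and 55128 to 86723 CPM after sham, so the label of the fraction held in every library. Markers of other cells were present as well. The summed level of 14 monocyte and macrophage markers amounted to 0.552% to 1.1% of the cardiomyocyte marker sum after MI and to 0.187% to 0.764% after sham, and that of 14 endothelial markers to 2.43% to 3.28% after MI and 3.19% to 7.76% after sham. None of the marker genes in the table was at 0 in all 8 libraries. In such bulk samples, fewer cells of a type and less RNA per cell cannot be told apart.

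Few genes passed the test after infarction at P1, and they fell into recognisable groups. Of 15461 genes tested with limma, 44 were higher and 9 were lower after MI at a Benjamini-Hochberg adjusted p under 0.05, which is what called means here, so 0.343% of all tested genes were called, 0.285% as higher and 0.0582% as lower. The increases were led by genes of macrophages at sites of damage, such as Spp1, Gpnmb, Mmp12 and Arg1. The decreases were led by Tcf15, Sez6l2 and Kcna5 and included Cdh5 and Tie1, genes of the vessel lining. The change of a called gene ran from 0.87 to 4.79 in size on the log2(CPM + 0.5) scale, with 46 of the 53 at 1 or more, against a median of -0.0291 over all tested genes. In all 53 the MI and sham libraries did not overlap, a pattern found in 11.6% of all tested genes. The genes were called on these same libraries by a test that favours such separation, so it is no separate support. Of the 15461 genes, 1754 were at an unadjusted p under 0.05, 827 of them higher. These are the background for the list counts at that p below. The number called rested on single libraries: it was 2 without MI library 1, 9 without MI library 2, 3 without MI library 4, 20 without sham library 1, 30 without sham library 3 and 80 without sham library 2, the last with 46 higher and 34 lower. It moved little without MI library 3 (49) or sham library 4 (51). Fitting only the 8 neonatal libraries called 275 genes (1.86% of those tested there), 183 higher (1.24%) and 92 lower (0.624%), and 48 of the 51 called genes that this fit could test were among them. Quantile normalization called 154 genes, of which 102 were higher, a smaller share of increases. Without the libraries over 5% 18S (P1 sham 2 and P56 sham 1), 129 were called, 58 higher and 71 lower, so that the excess of increases did not hold there. On reads recovered from the deposited values, edgeR called 21 genes (0.136%) and DESeq2 301 (1.95%). Mmp12 and Arg1 had an adjusted p under 0.05 under each of the 25 alternatives tried, Clu under 24, Cdh5 under 21, Gpnmb and Trem2 under 20, and Spp1 under 18. These counts go by the adjusted p alone, and Cdh5, at -0.87, did not reach the alternative's minimum fold of 2.

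Genes of injury-associated macrophages made the largest increases. Spp1 (ENSMUSG00000029304, chr5:104435118-104441050, GRCm38) encodes osteopontin, a secreted glycoprotein made by macrophages in wounds. It stood at 1442, 1364, 397 and 1126.5 CPM in MI libraries 1 to 4, against 13.8, 4.73, 127 and 158 CPM in sham libraries 1 to 4. MI library 3 was the lowest of its group, sham libraries 1 and 2 were far below the other sham libraries, and the groups did not overlap. The log2 change was 4.79 ± 0.87 (SE, adjusted p = 0.0227). Spp1 overlaps the predicted transcript Gm42793 on the same strand, so their reads cannot be separated. Gpnmb (ENSMUSG00000029816, chr6:49036546-49070929), a membrane glycoprotein of lysosome-rich macrophages, stood at 191, 174, 52.8 and 114 CPM in MI libraries 1 to 4, against 2.44, 0.845, 12.7 and 21.3 CPM in sham libraries 1 to 4. The same libraries were low within each group, and the log2 change was 4.36 ± 0.75 (SE, adjusted p = 0.0159).

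Mmp12 (ENSMUSG00000049723, chr9:7344381-7369499), the macrophage elastase, had the smallest adjusted p of all genes. Its level was 55.5, 38.7, 21.2 and 51.2 CPM in MI libraries 1 to 4, against 0.921, 0.423, 2.52 and 4.24 CPM in sham libraries 1 to 4. Every MI library was several times above every sham library, and the log2 change was 4.25 ± 0.54 (SE, adjusted p = 0.00347). Arg1 (ENSMUSG00000019987, chr10:24915208-24927470), the arginase of alternatively activated macrophages, stood at 24.2, 28.6, 14.0 and 44.0 CPM after MI and at 1.56, 0.507, 6.36 and 3.33 CPM after sham, libraries 1 to 4 in each case. The groups did not overlap, and the log2 change was 3.26 ± 0.44 (SE, adjusted p = 0.00382). Lgals3, encoding galectin-3, a lectin abundant in phagocytes, was at 90.1, 78.2, 29.0 and 60.9 CPM after MI and at 7.57, 4.73, 18.5 and 19.3 CPM after sham. Its lowest MI library was again the third and lay above every sham library (log2 change 2.42, adjusted p = 0.0478).

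Of a list of 20 injury-associated macrophage genes, all tested, 7 rose and none fell, against 0.285% of all tested genes called as higher. The list's median log2 change was 0.78, and 19 of its members were positive. It and the other gene lists were chosen with earlier results of these data known, so these counts are no separate support. Besides Spp1, Gpnmb, Arg1 and Lgals3, the called members were Trem2, a lipid-sensing receptor of phagocytes (log2 change 2.17), Hmox1, the inducible heme oxygenase that degrades heme (1.60), and Ctsb, a lysosomal cysteine protease (0.91). Trem2 stood at 18.5, 14.6, 7.33 and 10.2 CPM in MI libraries 1 to 4, against 2.60, 0.845, 2.86 and 3.69 CPM in sham libraries 1 to 4, without overlap. The list kept its 7 called members without MI library 3 or sham library 4, but had 1 without MI library 1, 2 or 4 or sham library 1, and 4 without sham library 2. On recovered reads edgeR called 3 members as higher and DESeq2 8, against 0.103% and 1.09% of all tested genes. Ctsb overlaps Fdft1 and Mmp12 overlaps Mmp1b on the opposite strand, and the sources used here do not give the strand setting of the authors' counting.

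Further genes of the same kind were called outside that list. Atp6v0d2, a subunit of the proton pump that acidifies lysosomes, changed by 3.26 (log2), Itgax, the integrin CD11c, by 2.44, and Clec7a, the receptor dectin, by 2.07. Olr1, a receptor for oxidised lipoprotein, changed by 2.07 and Mpeg1, a pore-forming protein of phagocytes, by 2.11. Signals that start or restrain inflammation rose together with them: Il1a, a cytokine released by damaged cells (1.81), Il1rn, the secreted antagonist of the interleukin receptor that Il1a binds (2.61), Ptgs2, the inducible cyclooxygenase (1.96), and Tnfaip3, an inhibitor of NF-kB signalling (1.03). F7 and F10, which encode coagulation factors, changed by 2.32 and 1.504, and F7 was at 0 reads in sham library 2. Il7r, the receptor for interleukin 7, changed by 2.48 and Dpep2, a dipeptidase that processes leukotrienes, by 2.47. Slc7a11, the cystine importer that feeds glutathione synthesis, changed by 1.72.

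**Figure D1:**
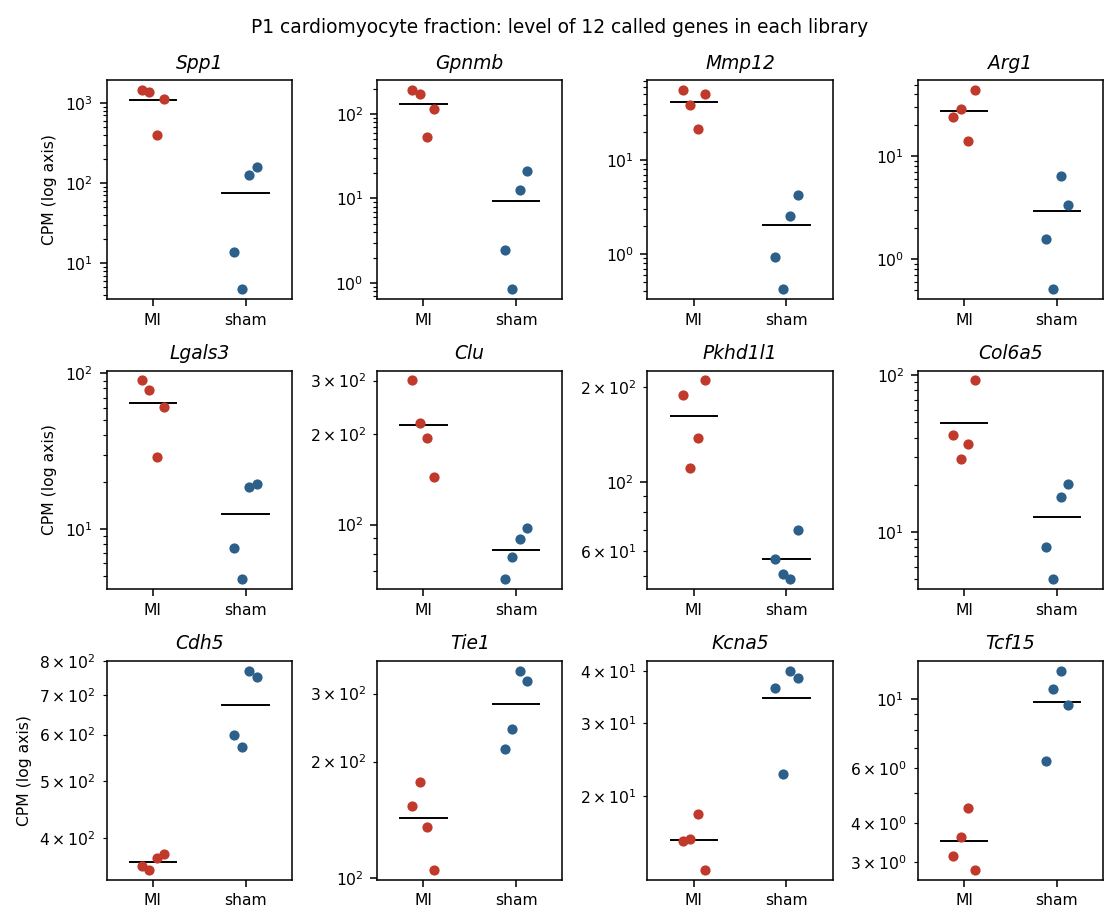
Level of 12 called genes in each P1 cardiomyocyte library (CPM, log axis), with MI libraries in red on the left, sham libraries in blue on the right, and a bar at the mean of 4. For Spp1, Gpnmb, Mmp12, Arg1 and Lgals3 the lowest red point is MI library 3, and in all 12 genes no red point lies within the range of the blue ones.

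The promoters of 6 macrophage genes that rose are shown because they hold short motifs of transcription factors known from activated macrophages. They are the 250 bases upstream of the start site in the RefSeq table (GRCm38.p6), written 5′ to 3′ on the strand of the gene. Capitals mark matches, on either strand, to TGANTCA, the core bound by AP-1, to GAGGAAG, a form bound by PU.1, the myeloid ETS factor, and, in Spp1 only, to CCGGAAG, a general ETS form that shares the letters GGAAG with the PU.1 form. The intervals are chr5:104434861-104435110 (plus strand) for Spp1, chr9:7344147-7344396 (plus) for Mmp12, chr17:48346151-48346400 (plus) for Trem2, chr2:24336610-24336859 (plus) for Il1rn, chr7:128129300-128129549 (plus) for Itgax and chr6:129507166-129507415 (minus) for Olr1. In Mmp12, Il1rn and Itgax the last 16, 7 and 3 bases lie past another annotated start.
Spp1: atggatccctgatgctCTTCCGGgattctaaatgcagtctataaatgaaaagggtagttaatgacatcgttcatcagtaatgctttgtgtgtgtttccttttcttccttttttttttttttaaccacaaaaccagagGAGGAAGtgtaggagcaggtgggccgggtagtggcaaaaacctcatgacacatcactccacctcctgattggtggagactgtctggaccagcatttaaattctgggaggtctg
Mmp12: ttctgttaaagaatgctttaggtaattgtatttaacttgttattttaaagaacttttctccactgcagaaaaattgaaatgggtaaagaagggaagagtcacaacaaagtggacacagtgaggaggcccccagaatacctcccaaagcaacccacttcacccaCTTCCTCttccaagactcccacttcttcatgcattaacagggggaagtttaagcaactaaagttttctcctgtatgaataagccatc
Trem2: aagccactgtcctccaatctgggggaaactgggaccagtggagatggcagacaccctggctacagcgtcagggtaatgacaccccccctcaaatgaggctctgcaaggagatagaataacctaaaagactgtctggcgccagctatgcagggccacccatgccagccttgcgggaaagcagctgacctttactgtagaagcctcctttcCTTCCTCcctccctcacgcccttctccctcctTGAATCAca
Il1rn: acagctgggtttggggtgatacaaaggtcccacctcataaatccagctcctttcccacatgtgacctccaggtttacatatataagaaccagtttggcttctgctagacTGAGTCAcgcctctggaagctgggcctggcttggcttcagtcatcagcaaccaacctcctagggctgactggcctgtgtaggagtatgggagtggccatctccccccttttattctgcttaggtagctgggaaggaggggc
Itgax: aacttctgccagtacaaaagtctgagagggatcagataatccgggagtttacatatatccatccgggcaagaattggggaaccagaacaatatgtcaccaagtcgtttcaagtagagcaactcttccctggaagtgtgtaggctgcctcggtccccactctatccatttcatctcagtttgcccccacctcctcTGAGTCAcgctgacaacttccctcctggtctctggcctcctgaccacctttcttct
Olr1: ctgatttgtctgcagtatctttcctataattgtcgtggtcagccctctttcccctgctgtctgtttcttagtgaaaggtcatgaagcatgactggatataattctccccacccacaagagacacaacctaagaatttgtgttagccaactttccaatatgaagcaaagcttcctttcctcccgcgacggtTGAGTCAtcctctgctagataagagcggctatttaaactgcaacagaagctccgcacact

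RefSeq promoters were found for 37 of the 53 called genes, 32 higher and 5 lower, and for 10557 tested genes. The AP-1 core occurred in 7 of the 32 promoters of genes that rose (21.9%), those of Tnfaip3, Trem2, Il1rn, Il1a, Itgax, Dhrs9 and Olr1, against 4.24% of all tested genes with a promoter. It lay 9 bases upstream of the start in Trem2, 141 in Il1rn, 56 in Itgax and 60 in Olr1. The PU.1 form occurred in 6 of the 32 (18.8%, against 10.9%): Spp1, Trem2, Mmp12, Il1a, Aox3 and Pkd1l2. The E-box CACGTG was in 1 of the 32 (3.12%, against 8.38%), the antioxidant response element TGACNNNGC in 2 (6.25%, against 12.2%) and the general ETS form in 1 (3.12%, against 13.2%). Among the 5 promoters of genes that fell, 1 held the PU.1 form, that of Tie1, and no match to the other 4 motifs was found in these windows. A match is a description of the letters and not of a bound site.

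Most of the genes that rose in the cardiomyocyte fraction were more abundant in sorted leukocytes. After MI at P1, 31 of the 44 had their highest mean of the 4 populations in leukocytes (70.5%, against 22.7% of all tested genes), by 1.002 to 22.8 times the cardiomyocyte fraction, with a median of 6.94 times. Spp1 averaged 7474 ± 3473 CPM in MI leukocytes and 1476 ± 1076 CPM in sham leukocytes (SD, n = 4 each), next to 1082 ± 477 CPM in the MI cardiomyocyte fraction and 75.8 ± 78.0 CPM in its sham fraction. Arg1 averaged 468 ± 229 CPM in MI leukocytes and 45.7 ± 25.1 CPM in sham leukocytes. Of the 31 genes, 27 had a higher mean in MI than in sham leukocytes, against 47.3% of all tested genes, and in 22 of those the leukocyte libraries did not overlap, against 22.5%. Ptprc, a gene of leukocytes in general, averaged 815 ± 38 CPM in MI leukocytes and 372 ± 63 CPM in sham leukocytes. Ttn, a cardiomyocyte gene, averaged 6482 ± 3329 CPM in MI leukocytes and 11799 ± 1832 CPM in sham leukocytes (SD, n = 4 each). Whether the sorted leukocyte libraries differed in purity was not tested. The 31 genes also ordered the libraries within each group: MI library 3 was the lowest MI library in 29 of the 31, and sham libraries 1 and 2 were the 2 lowest sham libraries in 28. In the other 13 genes that rose, MI library 3 was the lowest in 5, and sham libraries 1 and 2 were the 2 lowest in 9. How often all tested genes showed these orders was not counted, so they cannot be called particular to the 31 genes. The summed monocyte and macrophage markers gave the same order, with 898, 732, 506 and 798 CPM in MI libraries 1 to 4, against 307, 162, 373 and 421 CPM in sham libraries 1 to 4. Their part in the increases was not tested.

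**Figure D2:**
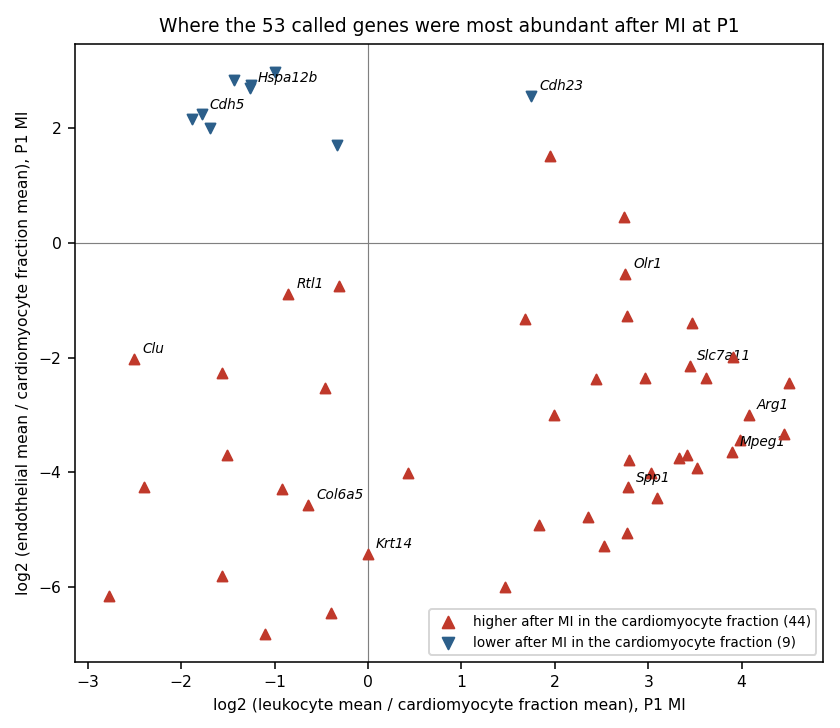
Each point is 1 of the 53 called genes, placed by its mean in P1 MI leukocytes (horizontal) and P1 MI endothelial cells (vertical) over its mean in the P1 MI cardiomyocyte fraction, both as log2 ratios. Genes that rose (upward triangles, red) lie mostly right of 0, with Spp1 and Arg1 among them, and the 9 that fell (downward triangles, blue) all lie above 0 on the vertical axis.

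A smaller group of genes that rose was most abundant in the cardiomyocyte fraction itself. In 9 of the 44 the highest of the 4 population means after MI was that of the cardiomyocyte fraction (20.5%, against 29% of all tested genes), and in 6 of the 9 the same held after sham. Clu (ENSMUSG00000022037, chr14:65968483-65981548) encodes clusterin, a secreted chaperone. It stood at 300.2, 218, 194 and 144 CPM in MI libraries 1 to 4, against 65.9, 77.9, 89.6 and 97.3 CPM in sham libraries 1 to 4. Here MI library 4 was the lowest of its group, MI library 3 was close to MI library 2, and the groups did not overlap (log2 change 1.33 ± 0.20 SE, adjusted p = 0.00666). Sorted cells held less of it after MI, with 37.9 ± 10.9 CPM in fibroblasts, 37.7 ± 8.5 CPM in leukocytes and 52.6 ± 10.9 CPM in endothelial cells (SD, n = 4 each). Pkhd1l1 (ENSMUSG00000038725, chr15:44457553-44597143), a large membrane protein related to fibrocystin, stood at 189, 110, 138 and 210.2 CPM in MI libraries 1 to 4, against 56.7, 50.6, 48.8 and 70.0 CPM in sham libraries 1 to 4. Each MI library lay above each sham library (log2 change 1.48 ± 0.28 SE, adjusted p = 0.0287), and it also averaged 130 ± 46 CPM in MI leukocytes and 34.0 ± 12.8 CPM in sham leukocytes. After MI it averaged 162 ± 46 CPM in the fraction, 110 ± 40 CPM in fibroblasts and 96.4 ± 13.2 CPM in endothelial cells. After sham its highest mean was in endothelial cells, at 75.5 ± 18.1 CPM, next to 56.6 ± 9.6 CPM in the fraction (SD, n = 4 each).

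The other 7 genes of this kind averaged under 5 CPM after MI. Among them were Chl1, an adhesion molecule of the L1 family (log2 change 1.43), Gjb5, a connexin (1.45), Ptprq, a receptor tyrosine phosphatase (1.29), Aox3, an aldehyde oxidase (1.46), Vat1l (1.34) and Spock3, a proteoglycan (0.98). In sorted fibroblasts, 8 of the 9 genes, Clu included, had a higher mean after MI than after sham, against 52.9% of all tested genes. The lead over MI fibroblasts was slight for Ptprq (1.83 against 1.55 CPM), Aox3 (1.80 against 1.47) and Gjb5 (3.43 against 2.78). It was wide for Spock3 (1.51 against 0.258). The epicardial markers Upk3b and Krt18 were highest in this fraction too, at 69.8 and 21.1 CPM after MI, whereas Msln was highest in leukocytes. Which cells held these transcripts was not tested.

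In 4 of the 44 genes that rose, sorted fibroblasts had the highest mean after MI (9.09%, against 24.3% of all tested genes). Col6a5, a chain of collagen VI, stood at 41.3, 29.3, 36.5 and 92.6 CPM in MI libraries 1 to 4, against 8.01, 4.99, 16.7 and 20.3 CPM in sham libraries 1 to 4. MI library 4 was the highest and the groups did not overlap (log2 change 2.00). The others were Angptl7, a secreted angiopoietin-like protein (1.39), Tnfrsf11b, the decoy receptor osteoprotegerin (1.51), and Rtl1, an imprinted gene derived from a retrotransposon (1.35). Rtl1 is overlapped by several miRNA genes on the opposite strand and Angptl7 by Mtor. The summed fibroblast markers, of which 0 of 14 were called by limma (1 at an unadjusted p under 0.05, 0 by edgeR or DESeq2), overlapped between the groups, at 3953 to 7177 CPM after MI and 2878 to 6897 CPM after sham.

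All 9 genes that fell were most abundant in endothelial cells. Cdh5 (ENSMUSG00000031871, chr8:104101625-104144502), the cadherin of endothelial junctions, stood at 359, 353, 369 and 376 CPM in MI libraries 1 to 4, against 598, 571, 771 and 753 CPM in sham libraries 1 to 4. The MI libraries lay close together and below every sham library (log2 change -0.87 ± 0.15 SE, adjusted p = 0.0149). Cdh5 overlaps an antisense transcript, Gm29682. Tie1 (ENSMUSG00000033191, chr4:118471191-118490061), a receptor of the angiopoietin system, stood at 153, 177, 135 and 105 CPM in MI libraries 1 to 4, against 215, 243, 344 and 324 CPM in sham libraries 1 to 4. Again no library crossed into the other group (log2 change -0.98 ± 0.21 SE, adjusted p = 0.0480). Tcf15, a transcription factor of heart capillary endothelium, stood at 3.13, 3.62, 4.46 and 2.83 CPM after MI and at 6.33, 10.8, 12.4 and 9.60 CPM after sham (log2 change -1.34). The other 6 were Sez6l2 (-1.21), Kcna5, a voltage-gated potassium channel (-1.08), Cdh23, a cadherin (-1.002), Hspa12b, a heat shock protein of endothelium (-0.98), Dok4, an adaptor protein (-0.94), and Ctnnbip1, an inhibitor of beta-catenin (-0.91). Cdh23, Dok4 and Hspa12b each overlap another coding gene.

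The 9 genes were 3.28 to 7.90 times as abundant in sorted endothelial cells as in the cardiomyocyte fraction after MI, and 24% of all tested genes had their highest mean there. In sorted endothelial cells all 9 had a lower mean after MI than after sham, but the libraries were apart in only 2 of them, against 46% and 5.01% of all tested genes. Cdh5 averaged 1721 ± 149 CPM in MI endothelial cells and 1808 ± 195 CPM in sham endothelial cells (SD, n = 4 each). In sorted leukocytes all 9 were lower after MI, with no overlap in any of them, against 25.9% of all tested genes. Cdh5 averaged 106 ± 39 CPM in MI leukocytes and 790.0 ± 54.5 CPM in sham leukocytes (SD, n = 4 each). The cardiomyocyte gene Myh6 was lower there as well, at 1696 ± 777 CPM after MI and 4067 ± 704 CPM after sham. Col3a1, a fibroblast marker, was not, at 3226 ± 795 CPM after MI and 2321 ± 548 CPM after sham. The part of other cells in the sorted leukocyte libraries was not tested. Of the 14 endothelial markers, 2 fell in the cardiomyocyte fraction, Cdh5 and Tie1, all 14 were negative, and the list's median log2 change was -0.60. In 7 of the 14 the MI libraries lay below all sham libraries, as in 5.52% of all tested genes. At an unadjusted p under 0.05 there were 10 lower, while edgeR called 1 and DESeq2 4 as lower, against 0.0323% and 0.854% of all tested genes. No marker was called without MI library 1, 2 or 4 or sham library 3, 1 was called without MI library 3, sham library 1 or sham library 4, and 3 without sham library 2. In a fit of the P1 libraries other than sham 2, 11 of the 14 were called as lower, against 7.25% of the genes tested there, and 7.5% were called as higher. The summed endothelial markers did not overlap either, with 2206, 2361, 2229 and 2322 CPM in MI libraries 1 to 4, against 3256, 2764, 4271 and 4280 CPM in sham libraries 1 to 4. The part of the endothelial RNA content in these decreases was not tested.

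**Figure D3:**
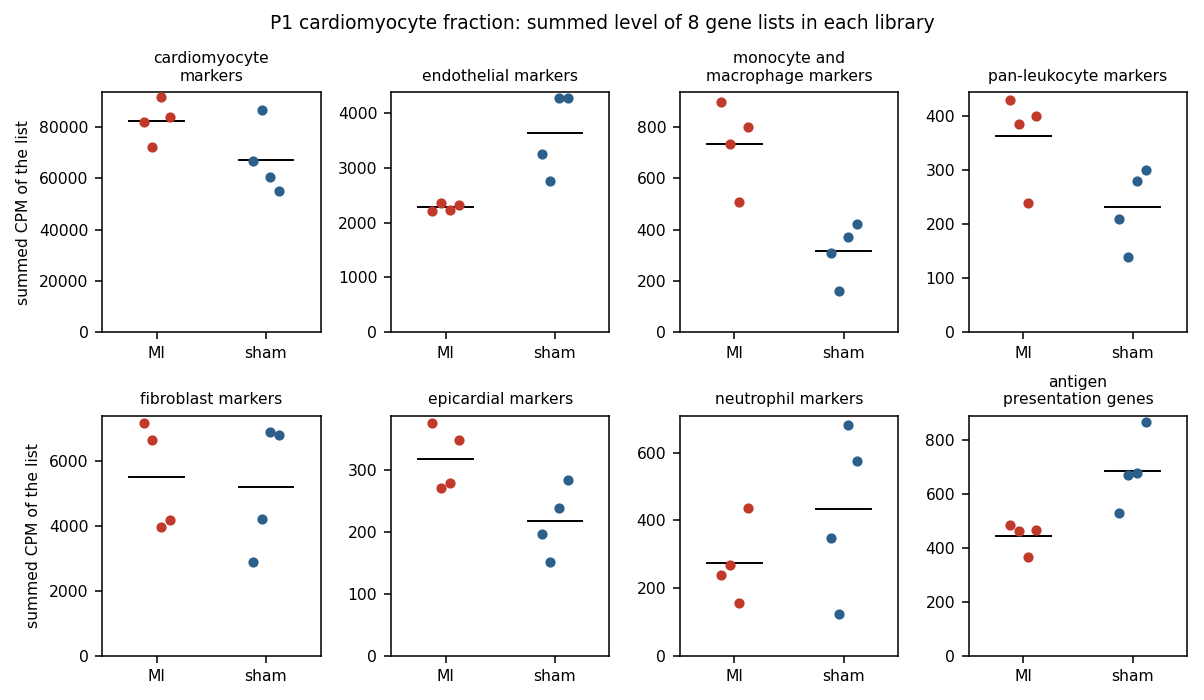
Summed level of 8 gene lists in each P1 cardiomyocyte library (CPM, axis from 0), MI in red on the left and sham in blue on the right, with bars at the means of 4. The endothelial sums lie at 2206 to 2361 CPM after MI, below all sham sums, and the monocyte and macrophage sums at 506 to 898 CPM after MI, above all sham sums.

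The contractile and electrical genes of the cardiomyocyte showed no called change in the fit of all 16 libraries. Of 26 cardiomyocyte markers, limma called 0, with 2 at an unadjusted p under 0.05 and 0 called by edgeR or DESeq2, and the list's median log2 change was 0.0183. Myh6, the adult ventricular myosin heavy chain of the mouse, stood at 11862, 10491, 14311 and 11144 CPM in MI libraries 1 to 4, against 8085, 15213, 9365 and 7577 CPM in sham libraries 1 to 4. Sham library 2 exceeded every MI library while the other sham libraries were below them. Ttn, encoding the giant sarcomere spring titin, was likewise high in sham library 2 alone among the sham libraries, with 28861, 23165, 26099 and 28424 CPM in MI libraries 1 to 4, against 9804, 25858, 9891 and 10957 CPM in sham libraries 1 to 4 (log2 change 1.04, adjusted p = 0.269). Of 23 calcium handling and ion channel genes, limma, edgeR and DESeq2 each called 0, with 2 at an unadjusted p under 0.05 and a median of 0.148. Atp2a2, the calcium pump of the sarcoplasmic reticulum, differed by -0.02 ± 0.29 (log2, SE). In the fit of the P1 libraries other than sham 2, 2 of the cardiomyocyte markers and 4 of the 23 calcium and channel genes were called, all higher. That fit called 7.5% of the genes tested there as higher.

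Genes of the fetal and stressed heart were mostly positive, 21 of 24, without a called member, and Nppa was the farthest from 0. Of the 24, limma called 0, edgeR 0 and DESeq2 1, with 6 higher at an unadjusted p under 0.05 and a median log2 change of 0.182. Over all 15461 tested genes, 827 were higher at that p, and DESeq2 called 1.09% as higher. The fit of the P1 libraries other than sham 2 called 5, all higher, against 7.5% of the genes tested there. Nppa, the atrial natriuretic peptide that the fetal ventricle makes, stood at 359, 545, 434.5 and 295 CPM in MI libraries 1 to 4, against 104, 203, 108 and 147 CPM in sham libraries 1 to 4. The groups did not overlap, but the change of 1.56 ± 0.46 (SE) missed the threshold (adjusted p = 0.163), and it passed when only the 8 neonatal libraries were fitted (adjusted p = 0.0259). Nppa overlaps an antisense transcript, Gm13054. Ankrd1, a stretch-responsive sarcomere protein, stood at 1365, 1504.5, 1729 and 1656 CPM in MI libraries 1 to 4, against 1175, 1208, 714 and 849 CPM in sham libraries 1 to 4, without overlap (log2 change 0.69, adjusted p = 0.408). Myh7, the fetal myosin heavy chain of the mouse ventricle, differed by 0.01 ± 0.22 (log2, SE), and it overlaps the antisense transcript Mhrt.

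Metabolic lists had medians of -0.154 to 0.114, against -0.0291 over all tested genes. Positive members were 7 of 24 for fatty acid oxidation, 5 of 28 for oxidative phosphorylation and 15 of 20 for glycolysis. They were 13 of 19 for hypoxia response and 6 of 7 for mitochondrially encoded genes. Limma called 0 of 24 fatty acid oxidation genes (2 at an unadjusted p under 0.05, 0 by edgeR or DESeq2), with a median log2 change of -0.059. It called 0 of 28 oxidative phosphorylation genes (0 at an unadjusted p under 0.05, 0 by edgeR or DESeq2), with a median of -0.154. Of 20 glycolysis genes it called 0 (1 at an unadjusted p under 0.05, 0 by edgeR, 1 by DESeq2), with a median of 0.0706. Of 19 hypoxia response genes it called 0 (2 at an unadjusted p under 0.05, 0 by edgeR or DESeq2), with a median of 0.114. The 7 mitochondrially encoded coding genes tested had a median of 0.0455, with 0 called by limma, edgeR or DESeq2 and 0 at an unadjusted p under 0.05. In the fit of the P1 libraries other than sham 2, 2 glycolysis genes were called as higher and 3 hypoxia response genes as lower. That fit also called 1 fatty acid oxidation gene each way and 1 oxidative phosphorylation gene as lower. It called 7.5% of the genes tested there as higher and 7.25% as lower. Cd36, the fatty acid transporter, differed by -0.21 ± 0.30 and Atp5b, the catalytic subunit of ATP synthase, by -0.11 ± 0.22 (log2, SE).

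Cell division genes, which the neonatal fraction held with or without infarction, were not called. Of 28 genes of the G2 and M phases, limma, edgeR and DESeq2 each called 0, with 0 at an unadjusted p under 0.05 and a median log2 change of -0.0848. Top2a, the topoisomerase that untangles replicated DNA, stood at 390.2, 477, 404 and 481 CPM in MI libraries 1 to 4, against 488, 403, 377 and 421 CPM in sham libraries 1 to 4. The groups overlapped, and the log2 difference was 0.05 ± 0.43 (SE). Cdk1, the kinase that drives entry into mitosis, stood at 98.0, 124, 105 and 122 CPM in MI libraries 1 to 4, against 178, 101, 153 and 159 CPM in sham libraries 1 to 4, where sham library 2 was lower than 3 of the MI libraries and the other sham libraries were above them. Of 28 DNA replication genes, limma, edgeR and DESeq2 each called 0, with 4 lower at an unadjusted p under 0.05, and 27 of the 28 were negative, with a median of -0.329. This list turned on sham library 2: a fit of the P1 libraries other than sham 2 called 14 of the 28, all lower, and 2 of the G2 and M phase genes, both lower, in a comparison that called 2160 genes in all (14.8%), 1098 higher and 1062 lower. Mcm6, a subunit of the replicative helicase, stood at 109 to 129 CPM in the MI libraries, against 204, 110, 192 and 185 CPM in sham libraries 1 to 4. The 18 cyclin D, inhibitor and p53 target genes had a median of -0.145, with 0 called by limma, edgeR or DESeq2 and 4 lower at an unadjusted p under 0.05.

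**Figure D4:**
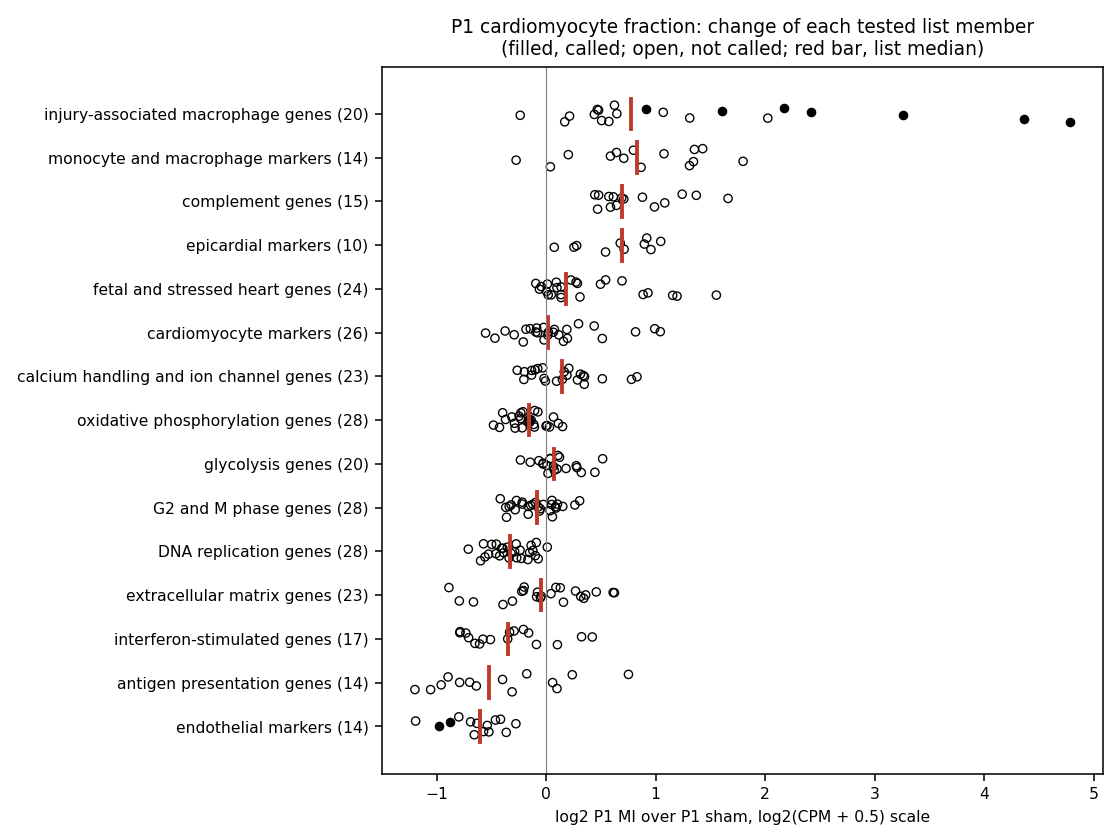
Log2 change (P1 MI over P1 sham, log2(CPM + 0.5) scale) of each tested member of 15 gene lists, with filled points for called genes, open points for the rest and a red bar at the list median. Injury-associated macrophage genes reach 4.79 and hold 7 filled points, endothelial markers hold 2 and all lie below 0, and the cardiomyocyte, metabolic and cell division lists hold none.

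Several immune and surface lists were shifted without passing the test gene by gene. Over all 15461 tested genes, 1754 were at an unadjusted p under 0.05, 827 of them higher. DESeq2 called 1.09% of all tested genes as higher and 0.854% as lower. The 14 monocyte and macrophage markers had a median log2 change of 0.832, and limma called 0 and edgeR 0 while DESeq2 called 3, with 8 higher at an unadjusted p under 0.05. In 7 of the 14 the MI libraries lay above all sham libraries, as in 6.1% of all tested genes. Lyz2, the lysozyme of myeloid cells, stood at 478, 363, 234 and 440 CPM in MI libraries 1 to 4, against 118, 40.1, 142 and 178 CPM in sham libraries 1 to 4 (log2 change 1.80, adjusted p = 0.0635), with every MI library above every sham library. The 12 pan-leukocyte markers were all positive, with a median of 0.716, 0 called by limma, edgeR or DESeq2 and 5 at an unadjusted p under 0.05. All 15 complement genes tested were positive, with a median of 0.69, 0 called by limma or edgeR, 1 by DESeq2 and 8 at an unadjusted p under 0.05. Of 26 cytokine and chemokine genes, limma called 1, Il1a, edgeR called 0 and DESeq2 called 6, with 15 higher and 1 lower at an unadjusted p under 0.05 and a median of 0.774. The lysosome list had 1 called member of 26, Ctsb, and the matrix degradation list 1 of 16, Mmp12.

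The 10 epicardial markers were all positive as well, with a median log2 change of 0.695, 0 called by limma or edgeR, 1 called by DESeq2 and 6 at an unadjusted p under 0.05. In 5 of them the MI libraries lay above all sham libraries, against 6.1% of all tested genes. Krt18, a keratin of the heart's outer lining, stood at 27.3, 18.3, 19.3 and 19.6 CPM in MI libraries 1 to 4, against 9.77, 7.95, 13.0 and 12.0 CPM in sham libraries 1 to 4. Krt8, its partner, and Krt18 were called when only the 8 neonatal libraries were fitted. In the opposite direction, the 14 antigen presentation genes had a median of -0.518, with 0 called by limma or edgeR, 4 by DESeq2 and 6 lower at an unadjusted p under 0.05. Over all 15461 tested genes, 1754 were at that p, 827 of them higher, and DESeq2 called 1.09% as higher and 0.854% as lower. H2-D1, a class I histocompatibility antigen, stood at 94.3, 112, 65.0 and 96.5 CPM in MI libraries 1 to 4, against 161, 120.0, 251 and 257 CPM in sham libraries 1 to 4. Sham library 2 was close to MI library 2 and the other sham libraries were well above. The 17 interferon-stimulated genes tested had a median of -0.351, with 0 called by limma or edgeR, 1 by DESeq2 and 6 lower at an unadjusted p under 0.05. Neutrophil markers overlapped between the groups, at 154 to 436 CPM after MI and 124 to 682 CPM after sham, and so did erythroid markers, at 902 to 1788 CPM after MI and 1309 to 1847 CPM after sham, and the lymphocyte markers of all 4 MI libraries lay within the sham range of 14.4 to 32.2 CPM.

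Among 7 lists of stress, matrix, growth factor and mural cell genes, 2 held a called gene each, and both were stress lists. Slc7a11 was the called member of 19 unfolded protein and integrated stress response genes (median log2 change 0.0255), and Hmox1 that of 15 oxidative stress genes (median 0.15). Hmox1 stood at 84.4, 75.8, 36.3 and 65.6 CPM in MI libraries 1 to 4, against 16.7, 12.4, 29.3 and 27.3 CPM in sham libraries 1 to 4, so that MI library 3 came near the highest sham library. The 23 extracellular matrix genes had a median of -0.0459, with 0 called by limma, edgeR or DESeq2 and 3 lower at an unadjusted p under 0.05. The 21 immediate early and heat shock genes had a median of 0.107, with 0 called by limma or edgeR, 1 by DESeq2 and 2 at an unadjusted p under 0.05. Of 24 growth factor and regeneration-associated genes, limma and edgeR called 0 and DESeq2 1, with 4 at an unadjusted p under 0.05 and a median of 0.242. The 15 glucocorticoid response genes had a median of -0.119, and the 11 mural cell markers one of -0.222, with 0 called by limma, edgeR or DESeq2 and 1 and 5 genes at an unadjusted p under 0.05. Over all 15461 tested genes, 1754 were at that p, and DESeq2 called 1.95%.

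The neonatal change was then set against the change after MI at P56, by testing the difference of the 2 changes in the same fit. For 270 genes (1.75% of those tested) the difference passed, 9 of them positive (0.0582%) and 261 negative (1.69%), where negative means that the P1 change lay below the P56 change. The median difference over all tested genes was -0.135. The number called was 126 without P1 sham library 3, 142 without P1 MI library 4, 147 without P1 MI library 3 and 155 without P1 sham library 4. It was 179 without P1 MI library 1, 229 without P1 MI library 2, 256 without P1 sham library 1 and 424 without P1 sham library 2. It was 3458 (22.5%) without P56 MI library 3 and P56 sham library 3, and these were far less one-sided, with 1503 positive (9.79%) and 1955 negative (12.7%). P56 MI library 3 had the lowest array weight of the 16 libraries. At P56 alone, limma called 1498 genes (9.69%), 1339 higher (8.66%) and 159 lower (1.03%).

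Division genes were among those whose change differed. Of the 28 G2 and M phase genes, 17 differed, all with the P1 change lower, and at P56 23 of them rose after MI. The shares of all tested genes were 1.69% and 8.66%. Markers of other cells rose at P56 as well, 11 of 12 pan-leukocyte (median log2 change 2.32), 7 of 14 monocyte and macrophage (1.14) and 4 of 12 neutrophil markers (1.05). So did 6 of 10 epicardial (1.98) and 4 of 14 fibroblast markers (0.282). The summed pan-leukocyte markers were at 150.1 to 376 CPM in P56 MI libraries and 54.0 to 131 CPM in P56 sham libraries, and the monocyte and macrophage markers at 378 to 904 CPM after MI and 93.0 to 390.1 CPM after sham. Their part in the rise of division genes was not tested. Of the 28 DNA replication genes 13 differed in that direction, and 18 rose at P56. Without P56 MI library 3 and P56 sham library 3, 21 differed, against 12.7% of the genes tested there. Cdk1 stood at 7.76, 3.63, 12.6 and 6.68 CPM in P56 MI libraries 1 to 4, against 0.621, 1.23, 0.834 and 1.05 CPM in P56 sham libraries 1 to 4, where P56 MI and sham did not overlap and every P56 level lay below every P1 level. The difference of its changes was -2.78 ± 0.38 (log2, P1 minus P56, SE, adjusted p = 0.00190). Top2a stood at 14.4, 6.69, 51.5 and 10.2 CPM in P56 MI libraries 1 to 4, against 0.869, 4.25, 1.55 and 1.54 CPM in P56 sham libraries 1 to 4 (difference -2.72). P56 MI library 3 was the highest in both genes. The difference was called under all 22 alternatives for Cdk1 and under 15 of 22 for Top2a, which lost it without P1 MI library 1, 3 or 4 or P1 sham library 3 or 4.

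Matrix and scar genes separated the ages too. Of the 23 extracellular matrix genes, 8 differed, all with the P1 change lower, against 1.69% of all tested genes. There were 16 without P56 MI library 3 and P56 sham library 3, against 12.7% of the genes tested there. Leaving out P1 MI library 4 or P1 sham library 3 gave 5. Of the 14 fibroblast markers 3 differed in that direction, and their sum was 1970.1 to 3789.8 CPM in P56 MI libraries and 793 to 2280.2 CPM in P56 sham libraries. Their part in the difference was not tested. Tnc, encoding tenascin-C, a matrix protein of healing wounds, stood at 150.0, 198, 78.3 and 112 CPM in P1 MI libraries 1 to 4, against 61.3, 69.6, 155 and 151 CPM in P1 sham libraries 1 to 4. At P56 it stood at 212, 48.5, 226 and 163 CPM after MI and 1.24, 1.98, 0.954 and 1.19 CPM after sham. The P1 groups overlapped, whereas the P56 groups were far apart (difference -5.93 ± 0.59 SE, adjusted p = 9.05e-05). Timp1, an inhibitor of matrix proteases, differed by -4.11. Lcn2, an iron-binding protein of neutrophils and injured tissue, differed by -4.91 and Saa3, an acute phase protein, by -4.67. Lcn2 was on the list of neutrophil markers, of which 2 of 12 differed with the P1 change lower. Their sum was 57.2 to 478 CPM in P56 MI libraries and 6.42 to 23.4 CPM in P56 sham libraries. The part of neutrophils in the difference of Lcn2 was not tested. Timp1 overlaps Syn1 on the opposite strand. In the other direction, Cmya5, a sarcomere and costamere protein, stood at 270, 245, 299 and 279 CPM in P1 MI libraries 1 to 4, against 187, 261, 142 and 134 CPM in P1 sham libraries 1 to 4. It was lower after MI at P56 (log2 change -1.15), and the difference was 1.79. Mylk4, a myosin light chain kinase, had a difference of 2.42.

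Of all tested genes, 9.69% were called at P56 in either direction and 1.75% for the difference. Among the 53 genes called after MI at P1, 29 were called at P56 in the same direction and 4 passed the test of the difference. The 4 were Arg1 (-3.37), Hmox1 (-1.98), Ctnnbip1 (-1.12) and Ptprq (1.37, log2, P1 minus P56). Hmox1 stood at 72.4, 38.4, 100.3 and 79.0 CPM in P56 MI libraries 1 to 4, against 3.60, 6.70, 7.27 and 4.35 CPM in P56 sham libraries 1 to 4, so that the MI ranges of the ages overlapped while the P56 sham range lay below the P1 sham range. The change of Mmp12 was 4.25 at P1 and 3.39 at P56, that of Gpnmb was 4.36 at P1 and 4.68 at P56, and that of Spp1 was 4.79 at P1 and 7.82 at P56. Their differences of 0.86 ± 0.76, -0.32 ± 1.07 and -3.03 ± 1.23 (SE) did not pass the test, which does not show that the ages responded alike. Of the injury-associated macrophage list, 5 of 20 differed, all with the P1 change lower, and 15 rose at P56. Of 24 fetal and stressed heart genes, 5 differed in that direction and 14 rose at P56. The shares of all tested genes were 1.69% and 8.66%. Without P56 MI library 3 and P56 sham library 3, 9 macrophage and 12 stress genes differed with the P1 change lower, against 12.7% of the genes tested there. In the fits without P1 MI library 3 or 4 or P1 sham library 3 or 4, 3 macrophage genes did so. No member of the cardiomyocyte marker, calcium handling, fatty acid oxidation, oxidative phosphorylation or complement lists was called for the difference by limma.

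**Figure D5:**
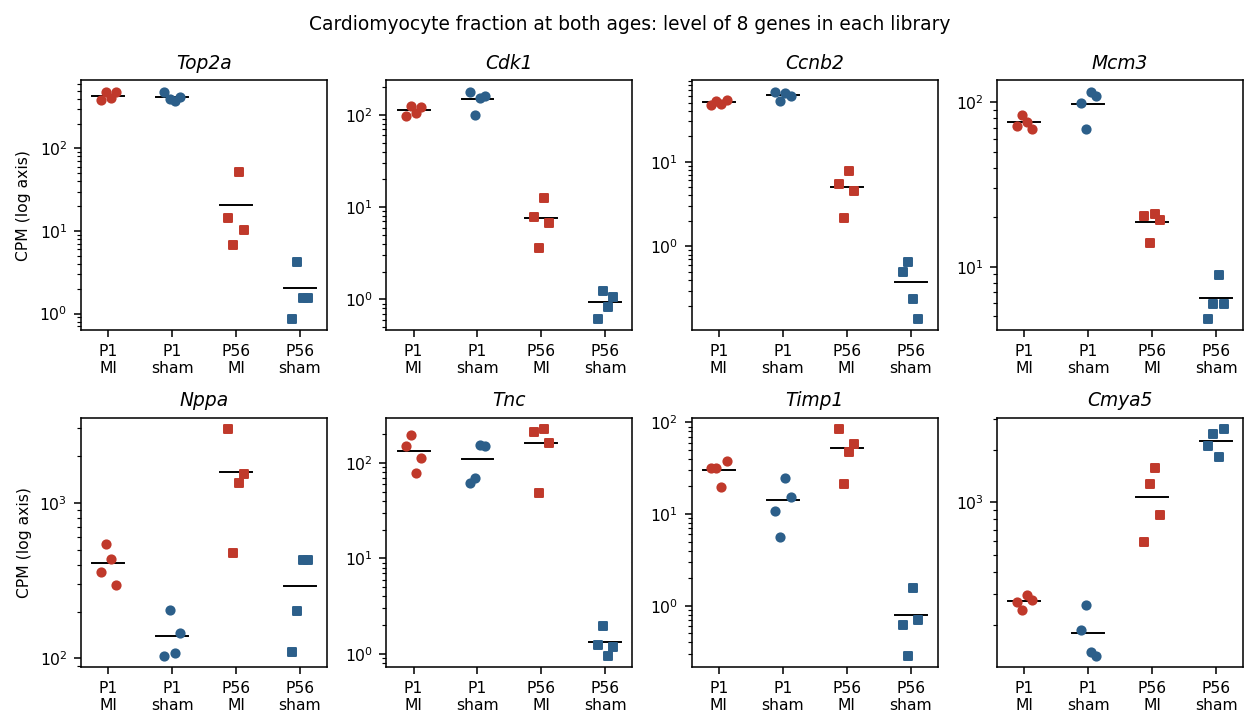
Level of 8 genes in each cardiomyocyte library at both ages (CPM, log axis), with MI in red left of sham in blue, P1 as circles, P56 as squares and bars at the means of 4. Top2a, Cdk1, Ccnb2 and Mcm3 overlap between P1 MI and P1 sham but separate at P56, and Tnc is high in both P1 groups and in P56 MI libraries but at 0.954 to 1.98 CPM in P56 sham libraries.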

How the data were processed

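RNA was measured in 64 libraries, of which 16 cardiomyocyte libraries entered the tests. Per the labels' protocols, RNA was extracted with Trizol, treated with DNase, depleted of ribosomal RNA with Ribo-Zero Gold and made into stranded TruSeq libraries read from a single end. Trimmomatic, STAR, HTSeq and edgeR appear in the submitters' processing notes with no version, as do the builds mm10, GRCm38 and GRCh38 with no role. The deposited table holds a normalised signal for 20637 genes, which the authors named CPM, and 100% of its values came out as whole reads within 0.01 of a read. Recovered reads served as depths and in count tests. The libraries had no molecular identifiers, so reads are not independent molecules and the floor of 3 reads stands for counting error alone. Coordinates are those of the table, and 15417 of the 15461 tested IDs were found in GENCODE M21 (GRCm38), all of them overlapping the annotated gene.

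The main test was limma 3.58.1 (R 4.3.3), with a variance trend, on log2(CPM + 0.5) over 4 group means of the 16 libraries, leaving out 5176 genes that did not reach 1 CPM in 4 libraries. Adjusted p-values in the text come from this test, over all genes tested. Fold changes on this scale understate the change of low genes. Recovered reads of the 12 pairs of P1 libraries within a group gave chi-square values per gene between 14.3 and 517, with a median of 97.0, and no pair was identical, so every library was kept as a replicate of its own.

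Members and 34 gene lists were chosen with earlier results of these data known. The named genes were the 12 largest increases and decreases among called genes of at least 2 CPM in a group mean without overlap (predicted genes and pseudogenes left out), up to 4 called members of each list, or its 2 of highest mean, and the 4 largest age differences each way. Other genes named, such as those most abundant in cardiomyocytes or fibroblasts, Nppa, Cdk1, Krt8 and Krt18, were chosen after their values were seen. Some genes that meet these rules are not reported here. The limma test was run on simulated counts first.

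Alternatives were a pseudocount of 0.1 or 1, dropping the filter or raising it to 5 CPM, scaling by median of ratios or by quantiles, dropping the trend, a replicate block, array weights, a minimum fold of 2, the 8 P1 libraries alone, each P1 library left out, and, on recovered reads, DESeq2 1.42.0 and edgeR 4.0.16 (quasi-likelihood). Chosen after seeing the data were fits without P56 MI 3 and P56 sham 3, without libraries over 5% 18S, of the P1 libraries other than sham 2, and edgeR on the 8 P1 libraries.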

Additional observations from a re-analysis of the deposited data

Results flagged for a closer look

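Of 192 groups of 4 libraries examined, 11 held a library far from the other 3 (5.73%), and chance flags about 1 in 20 groups. Atp6v0d2 at 4.64 CPM, F10 at 3.52 CPM and the nuclear noncoding RNA Neat1 at 324 CPM were lowest in P1 MI library 3 and far below the other MI libraries. The keratins Krt14, at 8.68 CPM, and Krt18, at 27.3 CPM, were highest in P1 MI library 1. Myl7 at 224 CPM, Sln at 23.6 CPM and Kcnj3 at 15.0 CPM were lowest in P1 MI library 1, and these 3 genes had been picked after their values were seen. Mylk4 at 7.18 CPM, Mki67, the marker of cycling cells, at 538 CPM and Ttn at 25858 CPM were highest in P1 sham library 2 and far above the other sham libraries.

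The change after MI differed between the ages, by the test of the difference itself (log2, P1 minus P56, limma), for 17 genes named in the text. Among genes called at P1 it was -3.37 for Arg1, -1.98 for Hmox1, -1.12 for Ctnnbip1 and 1.37 for Ptprq. The largest negative differences were -5.93 for Tnc, -4.91 for Lcn2, -4.67 for Saa3 and -4.11 for Timp1. The largest positive ones were 2.42 for Mylk4, 1.94 for Lgi1, 1.79 for Cmya5 and 1.78 for Amy1, and Lgi1 and Amy1 were under 2 CPM in every P1 library. Among division genes it was -2.78 for Cdk1, -2.84 for Ccnb2, -1.84 for Mcm3, -1.76 for Mcm6 and -2.72 for Top2a.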

How the results depend on the processing

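The number of genes called after MI at P1, 53, moved to 16 with a pseudocount of 0.1 and 95 with 1, 168 with no filter and 15 with a filter at 5 CPM, 154 with quantile normalization and 4384 with array weights (2004 higher, 2380 lower). It was 21 with edgeR, all of them among the 53, and 301 with DESeq2 (169 higher, 132 lower), 275 with the 8 P1 libraries alone and 401 with edgeR on those 8. Without P56 MI 3 and P56 sham 3 it was 219, with the P1 libraries other than sham 2 it was 2160, and without libraries over 5% 18S (P1 sham 2 and P56 sham 1) it was 129. Leaving out 1 library gave 2 to 80. The causes were not tested. The difference between ages, 270 genes, moved to 129 with quantile normalization, 6019 with array weights (2313 positive, 3706 negative), 639 with DESeq2 and 3458 without P56 MI 3 and P56 sham 3, and leaving out 1 P1 library gave 126 to 424. Median-of-ratios scaling left 61 and 193 and gave a median difference between ages of -0.008 over all genes, against -0.135. No pairing of the P1 libraries by replicate number was seen: the correlations of their deviations were -0.426, 0.265, -0.258 and 0.28, and 0 of 4 MI libraries correlated best with its own number. With 4 libraries a group these values cannot exclude a pairing. With the replicate block, 27 genes were called at P1 and 170 for the age difference. No called gene followed through the alternatives changed direction in any of them. Atp2a2 and Myh7, uncalled and near 0, did. Atp2a2 was at 0.0088 with median-of-ratios scaling, 0.14 with quantile normalization, 0.12 with array weights and 0.0692 in both other fits without P1 sham 2, and leaving out 1 library gave -0.14 to 0.0692. Myh7 was at -0.0063 with edgeR, and leaving out 1 library gave -0.10 to 0.12. Values near the floor of 0.102 to 0.254 CPM, as in Lgi1, limit what these depths can show.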

Other observations

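Genes that mark the atrium in the mature heart lay above all 4 sham libraries in MI libraries 2, 3 and 4 without passing the test, and they were chosen after their values were seen. Myl7, the atrial regulatory light chain, stood at 224, 734, 791 and 719 CPM in P1 MI libraries 1 to 4, against 148, 369, 241 and 457 CPM in P1 sham libraries 1 to 4 (log2 change 0.99, adjusted p = 0.459). MI library 1 lay among the sham libraries. Sln, sarcolipin, stood at 23.6, 66.6, 63.2 and 69.3 CPM after MI and 18.7, 38.6, 22.1 and 48.2 CPM after sham, with MI library 1 again low (log2 change 0.78, adjusted p = 0.543). Kcnj3, a subunit of the acetylcholine-gated potassium channel, stood at 15.0, 33.5, 31.2 and 31.2 CPM after MI and 11.4, 23.4, 12.5 and 13.8 CPM after sham (log2 change 0.83, adjusted p = 0.248).

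Rtl1 was the called gene of an imprinted region whose maternally expressed noncoding RNAs had positive log2 changes too. That of Meg3 was 1.49 (log2, adjusted p = 0.0694), and it passed with the 8 P1 libraries alone (adjusted p = 0.0479). Rian stood at 115, 96.8, 53.1 and 110.3 CPM in P1 MI libraries 1 to 4, against 46.6, 39.9, 59.3 and 69.2 CPM in P1 sham libraries 1 to 4 (log2 change 0.77, adjusted p = 0.308), and MI library 3 lay within the sham range. Meg3 averaged 377 ± 16 CPM in P1 MI fibroblasts and 385 ± 71 CPM in P1 sham fibroblasts (SD, n = 4 each). Igf2, an imprinted growth factor, differed the other way, at 443, 504, 338 and 291 CPM in P1 MI libraries 1 to 4, against 481, 692, 892 and 798 CPM in P1 sham libraries 1 to 4 (log2 change -0.86, adjusted p = 0.0855). It was most abundant in endothelial cells, at 2212 ± 180 CPM after MI and 2313 ± 161 CPM after sham at P1 (SD, n = 4 each). Igf2 overlaps the coding gene Gm49394 on the same strand and the antisense transcript Igf2os.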
